A study of Mus musculus with 10 samples.

Results

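The genes described here are 42 genes of blood and lymphatic endothelium and of the signals that act on it, out of 21792 genes listed for the kidney cortex of sham mice and of mice with aristolochic acid nephropathy (AAN). They were listed by symbol and by role, with no threshold on a measured value. The roles were junction, adhesion and surface proteins (8 genes), transcription factors (4 genes), capillary bed genes of the peritubular and glomerular networks (4 genes), VEGF receptors and neuropilins (5 genes), VEGF family ligands (5 genes), angiopoietins and Tie receptors (5 genes), vasoactive signals and their receptors (6 genes), adhesion receptors of activated endothelium (3 genes) and lymphatic genes (2 genes). All 10 mice were WT C57BL/6 males, 8 weeks old when the model was set up. In the AAN group, 6 mice had been given 5 mg/kg of aristolochic acid in PBS by a single intraperitoneal injection, and the 4 sham mice had been given PBS. Cortex was taken at day 28, and RNA from each mouse gave 1 RNA-seq library. Aristolochic acid is a plant toxin that injures the proximal tubule, and the cortex scars in the following weeks.

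Endothelial cells line every vessel of the cortex. The glomerular capillaries filter the blood, the peritubular capillaries run between the tubules and take back what the tubules reabsorb, and a sparse set of lymphatics drains the interstitium. Podocytes and tubules secrete VEGF-A, which acts on the receptor VEGFR2 (*Kdr*) of nearby capillaries, and angiopoietin 1 acts on the receptor Tie2 (*Tek*) to keep vessels quiescent, while angiopoietin 2 can oppose it. Activated endothelium displays selectins and ICAM-1, to which leukocytes attach. In injured kidneys, loss of peritubular capillaries is a well known companion of fibrosis.

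The labelled tissue was checked first. The summed level of 8 proximal tubule genes was 21060 to 35936 FPKM in the sham libraries and 1147 to 3454 FPKM in the AAN libraries. In sham most of that sum was *Kap*, at 16685 to 33359 FPKM against 303 to 2204 FPKM in AAN. In AAN 6 of the 8 were called lower, where 3.43% of all genes tested were. *Slc5a12* was not lower, with a mean of 7.87 FPKM in sham against 9.66 FPKM in AAN. FPKM is a fragment count divided by transcript length and by library depth, so it is a level per length. Estimated from the steps of the low values, depth was 15.8 to 17.5 M fragments per sham library and 13.4 to 16.5 M fragments per AAN library. The libraries showed 2 features that bear on the endothelial genes. First, 82.3% of the 17129 genes tested had a higher estimate in AAN, with a median change of 0.75 on the log2 scale. The FPKM totals did not lie higher, at 439662 to 715204 in sham and 388126 to 561364 in AAN. The share of mitochondrial genes in the FPKM total ranged from 39.5% to 61.4% among sham mice and from 21.4% to 55.0% among AAN mice. A rescaling by the median of ratios between mice, which brought the median change to 0.06, is therefore given beside the deposited scale. Second, sham B607 and AAN B614 read long transcripts higher relative to short ones than the other libraries of their own group did. This length tilt compared genes with transcripts of 4531 bases or more with genes of 1949 bases or less. It was the log2 level of the long genes minus that of the short genes, each relative to the other mice of the same group. The tilt was 0.73 and 0.59 in those 2 libraries and -0.29 to 0.02 in the other 8.

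Of the 42 genes, 41 had a mean of at least 0.1 FPKM and were tested, and *Sele* was not. A call needed both a limma adjusted p no greater than 0.05 and at least a 2-fold difference on log2(FPKM + 0.1). In AAN, 19 of the 41 (46.3%) were called higher and 0 were called lower, where 35.8% of all genes tested were called higher and 3.43% lower. The median change of the 41 was 0.93, 27 of them lay above the median of all genes and 14 below it. For 28 of the 41 every AAN mouse lay above every sham mouse, and for 0 every AAN mouse lay below, where 40.3% and 3.25% of all genes tested did so. A further 10 passed the adjusted p at less than 2-fold, all of them higher in AAN, and 12 did not pass it. On the median of ratios scale 9 of the 41 were called higher (19% of all genes) and 2 lower (10.5% of all genes). After quantile normalization 7 were called higher (14.8% of all genes) and 3 lower (11.8% of all genes). With the FPKM totals made equal between mice, 28 were called higher (51.6% of all genes) and 0 lower (1.94% of all genes). The count of calls thus moved with the scaling for the endothelial genes and for all genes alike. One gene counted as higher, *Selp*, had a sham mean of 0.0242 FPKM and passed the limit of 0.1 FPKM only through the AAN mice. The 9 called higher on the median of ratios scale were *Fli1*, *Ehd4*, *Nrp2*, *Edn1*, *Ednra*, *Aplnr*, *Icam1*, *Selp* and *Pdpn*, and the 2 called lower were *Kdr* and *Vegfa*. After quantile normalization *Ednra* and *Selp* were no longer called, and the 3 called lower were *Angpt1*, *Kdr* and *Prox1*.

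**Figure D1:**
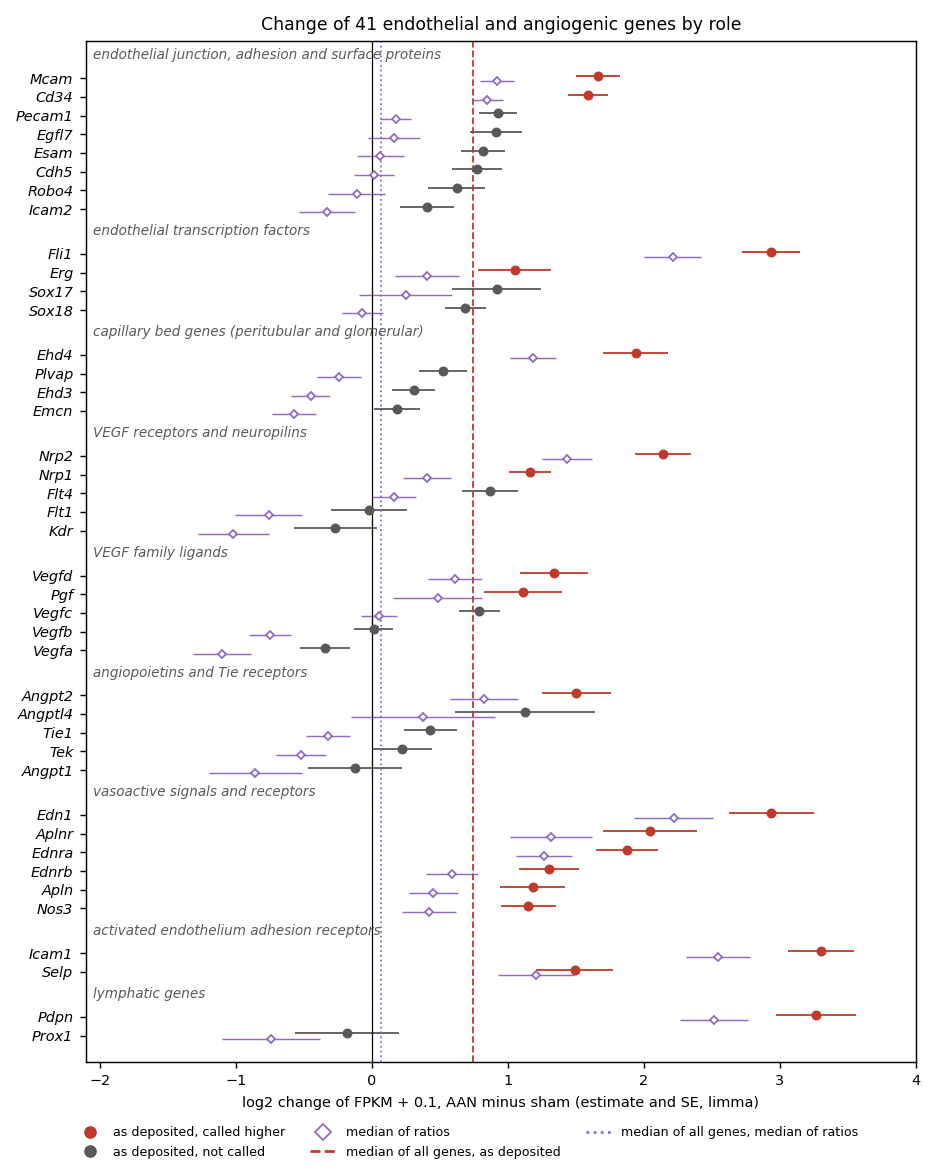
Change of each of the 41 tested genes in AAN (6 mice) against sham (4 mice), as the limma estimate and its SE on log2(FPKM + 0.1), grouped by role. Filled circles are the deposited FPKM (red where called higher), open diamonds are the same genes after rescaling by the median of ratios, and the vertical lines mark no change and the median of all genes on each scale (0.75 and 0.06). *Icam1*, *Pdpn*, *Edn1* and *Fli1* lie farthest to the right on both scales, and *Kdr* and *Vegfa* lie farthest to the left on the median of ratios scale.

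Of the 8 genes of endothelial junctions, adhesion and surface, *Cd34* and *Mcam* were called higher, and the changes of the other 6 lay between 0.41 and 0.93 on the log2 scale, around the median of all genes. *Pecam1* encodes PECAM-1 (CD31), an adhesion protein of endothelial junctions. It read 5.47, 4.10, 4.61 and 5.44 FPKM in the 4 sham mice and 8.36 to 10.4 FPKM (median 9.21) in AAN. Every AAN mouse lay above every sham mouse, and the change of 0.93 (SE 0.14, limma, adjusted p = 0.000155) stayed under 2-fold. *Cdh5*, the gene of VE-cadherin, was at 8.37 ± 2.05 FPKM in sham (SD, n = 4) and 14.2 ± 2.0 FPKM in AAN (SD, n = 6), a change of 0.77 (SE 0.18). *Esam*, which encodes a tight junction protein of endothelium and platelets, changed by 0.82 (SE 0.16), and *Egfl7*, a secreted endothelial matrix protein, by 0.91 (SE 0.19). *Robo4*, a guidance receptor of endothelium, changed by 0.62 (SE 0.21). All of these rises passed the adjusted p without reaching 2-fold. *Icam2*, a ligand for leukocyte integrins on resting endothelium, changed by 0.41 (SE 0.20, limma, adjusted p = 0.0961) with overlapping groups. These 6 genes had changes of -0.33 to 0.18 on the median of ratios scale, and none passed the adjusted p there. In whole cortex, fewer cells of a type and less RNA per cell cannot be told apart.

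*Cd34*, the gene of a sialomucin of capillary endothelium, read 2.26, 1.69, 2.03 and 2.37 FPKM in the sham mice. In AAN it read 5.86 to 7.03 FPKM (median 6.33), and the groups were far apart against a spread of 0.301 and 0.468 FPKM (SD). Its change was 1.59 (SE 0.15, limma, adjusted p = 2.71e-06). *Mcam*, which encodes the adhesion protein CD146, read 2.50, 1.96, 2.23 and 2.35 FPKM in sham against 6.30 to 9.06 FPKM (median 6.97) in AAN. Its change was 1.66 (SE 0.16, limma, adjusted p = 4.31e-06). After rescaling by the median of ratios, *Cd34* was at 0.85 (SE 0.12) and *Mcam* at 0.92 (SE 0.12), both past the adjusted p and under 2-fold. A comparison within each mouse, which a scaling factor between mice leaves almost unchanged, set both genes against *Pecam1*. *Cd34* minus *Pecam1* was -1.24 to -1.14 on the log2 scale in sham and -0.81 to -0.39 in AAN, a difference of 0.66 (SE 0.07). *Mcam* minus *Pecam1* rose by 0.73 (SE 0.11). Neither pair overlapped between the groups (exact permutation test, two-sided, p = 0.00476 for each, the smallest that the 210 assignments of 10 mice to 4 and 6 allow, adjusted p = 0.00857 over 18 pairs). *Cd34* is also expressed by fibroblast-like stromal cells and *Mcam* by pericytes and smooth muscle. Beside them, 6 of 6 fibroblast genes and 5 of 8 mural cell genes were called higher, where 35.8% of all genes tested were. The summed level of the fibroblast genes was 13.0 to 18.3 FPKM in sham against 106.6 to 245.7 FPKM in AAN. That of the mural cell genes was 35.96 to 51.7 FPKM in sham against 64.4 to 132.2 FPKM in AAN. By the median of ratios all 6 fibroblast genes were called higher, and of the mural cell genes 1 was higher and 2 lower (1 and 3 after quantile normalization). The shares of all genes were 19% higher and 10.5% lower (14.8% and 11.8% after quantile normalization). The part of fibroblasts and mural cells in the rise of *Cd34* and *Mcam* was not tested. *Cd34* and *Mcam*, like *Egfl7*, *Sox17*, *Angpt1*, *Nos3*, *Ednra*, *Selp* and *Prox1*, overlap a listed gene on the other strand, and whether the fragments were counted by strand is not given in the sources used here.

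Of the 4 transcription factors, *Fli1* and *Erg* were called higher, *Fli1* on both scales. FLI1 and ERG are ETS family factors that maintain endothelial identity. *Fli1* (chr9:32422204-32542861, GRCm38, minus strand) read 1.08, 0.939, 0.800 and 0.972 FPKM in sham against 4.67 to 10.6 FPKM (median 8.44) in AAN. The lowest AAN mouse, B614, was still over 4 times the highest sham mouse. The change was 2.94 (SE 0.21, limma, adjusted p = 5.56e-07) and 2.21 (SE 0.21) on the median of ratios scale. *Erg*, which is more restricted to endothelium than *Fli1*, read 0.699, 0.269, 0.352 and 0.424 FPKM in sham against 0.753 to 1.52 FPKM (median 0.909) in AAN. Its change of 1.05 (SE 0.27, limma, adjusted p = 0.00503) fell under 2-fold when sham B634 (0.89), sham B636 (0.99) or AAN B614 (0.93) was left out, and it was 0.41 (SE 0.24) on the median of ratios scale and -0.20 after quantile normalization. *Fli1* is also a gene of leukocytes and platelets. All 8 leukocyte genes were called higher, where 35.8% of all genes tested were. They had a median change of 4.12 and a summed level of 11.4 to 22.4 FPKM in sham against 195.4 to 516.0 FPKM in AAN. The part of those cells in the rise of *Fli1* was not tested.

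*Sox17* and *Sox18* encode SOXF factors of arterial and developing endothelium. *Sox18* was at 10.05 ± 1.12 FPKM in sham against 16.3 ± 2.37 FPKM in AAN, with no overlap, and its change was 0.69 (SE 0.15). *Sox17* ranged from 0.385 to 0.772 FPKM in sham and from 0.629 to 2.25 FPKM in AAN, with a change of 0.92 (SE 0.33). Both passed the adjusted p under 2-fold, and *Sox17* reached 2-fold when sham H249 (1.07), AAN B614 (1.03) or AAN B642 (1.06) was left out. By the median of ratios *Sox17* was at 0.25 (-0.29 after quantile normalization) and *Sox18* at -0.07, and neither passed the adjusted p.

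Of the 4 capillary bed genes *Ehd4* was called higher, *Plvap* passed the adjusted p under 2-fold, and *Emcn* and *Ehd3* did not pass. The estimates of *Plvap*, *Emcn* and *Ehd3* lay below the median of all genes as deposited and by the median of ratios. After quantile normalization, *Emcn* (-0.40) and *Ehd3* (-0.25) lay below the median of all genes of -0.10. *Plvap* lay above it there, at 0.43 (SE 0.18, limma, adjusted p = 0.0801). *Plvap*, the gene of the diaphragm protein of fenestrated capillaries and the highest of the 42 in sham, read 57.4, 38.7, 64.1 and 63.2 FPKM. In AAN it read 67.1 to 93.6 FPKM (median 77.5), above every sham mouse. Its change was 0.53 (SE 0.18, limma, adjusted p = 0.022). *Emcn*, which encodes the sialoglycoprotein endomucin of capillaries and veins, was at 10.1 ± 2.44 FPKM in sham against 11.3 ± 1.35 FPKM in AAN, a change of 0.19 (SE 0.17, limma, adjusted p = 0.359). *Ehd3*, an endocytic ATPase gene that in the kidney marks the glomerular endothelium, was at 10.8 ± 1.62 FPKM in sham against 13.4 ± 1.92 FPKM in AAN, a change of 0.31 (SE 0.16, limma, adjusted p = 0.108). The groups overlapped for *Emcn* and *Ehd3*. By the median of ratios *Emcn* was at -0.57 (SE 0.16, limma, adjusted p = 0.0115) and *Ehd3* at -0.45 (SE 0.14, limma, adjusted p = 0.0218), both under 2-fold, and *Plvap* was at -0.24 (SE 0.16). *Plvap* minus *Ehd3*, a peritubular against a glomerular gene within each mouse, was 2.07 to 2.52 in sham and 2.29 to 3.04 in AAN, and the difference of 0.22 (SE 0.15) did not pass (exact permutation test, two-sided, p = 0.257).

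*Ehd4*, a paralog of *Ehd3* that is expressed in peritubular endothelium and in many other cells, was the 1 called. It read 8.88, 3.78, 5.35 and 7.66 FPKM in sham against 19.4 to 31.4 FPKM (median 22.5) in AAN. The groups did not overlap, and the change was 1.94 (SE 0.24, limma, adjusted p = 2.97e-05), with 1.19 (SE 0.17) on the median of ratios scale. Within each mouse *Ehd4* lay below *Ehd3* in all 4 sham mice, with differences of -1.25 to -0.17, and above it in all 6 AAN mice, with differences of 0.31 to 1.39. The difference between the groups was 1.63 (SE 0.27, exact permutation test, two-sided, p = 0.00476, adjusted p = 0.00857).

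**Figure D2:**
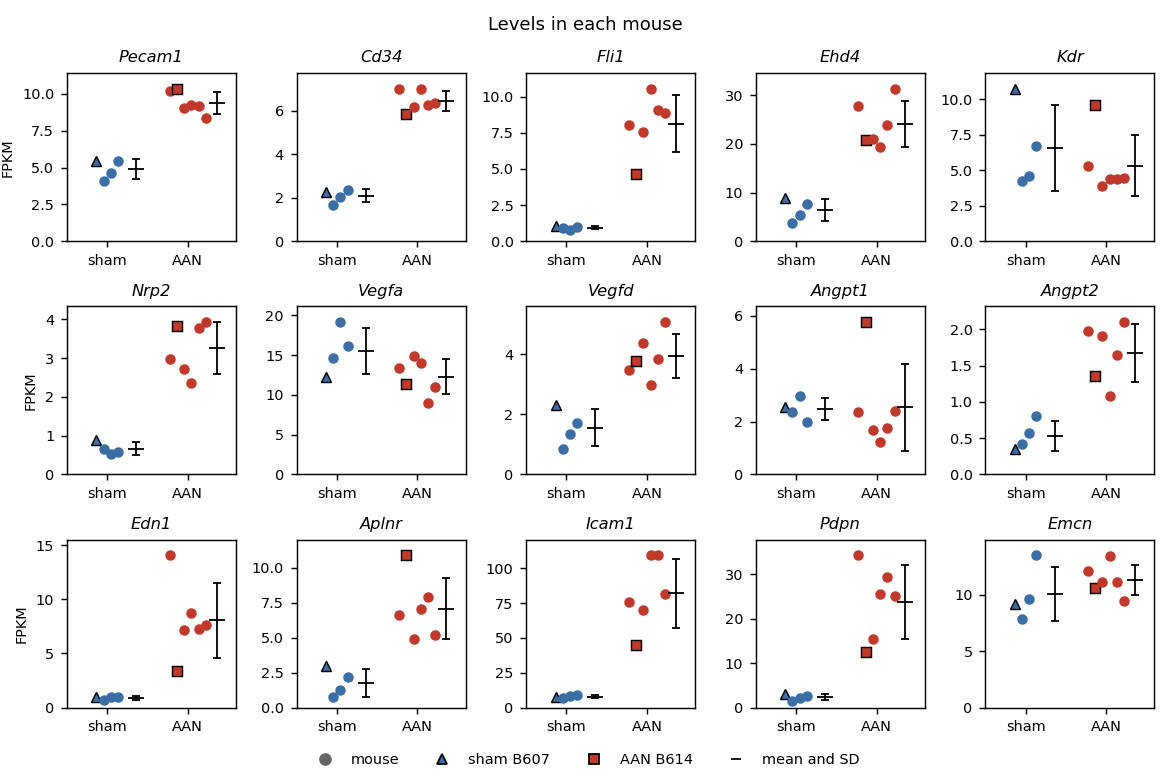
FPKM of 15 endothelial and angiogenic genes in each of the 4 sham mice (blue) and 6 AAN mice (red), with the group mean and SD to the right of the points. The triangle is sham B607 and the square AAN B614, the 2 libraries with a length tilt. *Icam1*, *Pdpn*, *Edn1* and *Fli1* separate the groups widely, while *Kdr* is highest in sham B607 (10.8) and AAN B614 (9.59) and lies at 3.89 to 6.69 in the other 8 mice.

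The VEGF receptors split by family member. *Kdr* (chr5:75932827-75978458, GRCm38, minus strand) encodes VEGFR2, the main signalling receptor of VEGF-A. It read 10.8, 4.23, 4.59 and 6.69 FPKM in sham against 3.89 to 9.59 FPKM (median 4.43) in AAN. The highest values of both groups were those of sham B607 and AAN B614, and the groups overlapped with or without them. The change was -0.27 (SE 0.30, limma, adjusted p = 0.456), and -0.18 (SE 0.18) without these 2 mice, an alternative chosen after seeing the data. On the median of ratios scale it was -1.02 (SE 0.26, limma, adjusted p = 0.00736), and without the 2 mice -0.999 (SE 0.12, limma, adjusted p = 0.000133), just under 2-fold. With the FPKM totals made equal between mice, *Kdr* was at 0.09. *Flt1*, the gene of the decoy and signalling receptor VEGFR1, read 4.42, 1.89, 1.96 and 2.24 FPKM in sham against 1.61 to 3.72 FPKM (median 2.33) in AAN, with sham B607 and AAN B614 again highest. Its change was -0.02 (SE 0.28), and -0.76 (SE 0.25, limma, adjusted p = 0.0258) on the median of ratios scale. *Flt4* encodes VEGFR3, the receptor for VEGF-C and VEGF-D of lymphatic and some fenestrated endothelium. It read 1.63, 0.714, 0.975 and 1.18 FPKM in sham against 1.88 to 2.28 FPKM (median 2.07) in AAN. These groups did not overlap, and the change of 0.87 (SE 0.21, limma, adjusted p = 0.00324) reached 2-fold (1.06) without sham B607. It was 0.16 (SE 0.16) on the median of ratios scale and -0.21 after quantile normalization.

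*Kdr*, *Flt1* and *Flt4* have longest transcripts of 5924, 6895 and 6255 bases, above the 4531 bases that bound the long genes. The 7 of the 42 genes above it, which also include *Nrp2*, *Prox1*, *Robo4* and *Tek*, lay a median of 0.69 above the other sham mice in B607 and 0.58 above the other AAN mice in B614 on the log2 scale. The other 35 lay at medians of 0.13 and -0.14. The part of the tilt in these values was not tested. *Flt4* and *Kdr* have transcripts of similar length. *Flt4* minus *Kdr* within each mouse was -2.65 to -2.13 in sham and -2.09 to -0.91 in AAN, a difference of 1.14 (SE 0.20, exact permutation test, two-sided, p = 0.00476, adjusted p = 0.00857), and 1.22 without the 2 tilted mice. The lowest value of each group came from a tilted library, sham B607 (-2.65) and AAN B614 (-2.09). *Flt1* minus *Kdr* differed by 0.24 (SE 0.15, exact permutation test, two-sided, p = 0.181).

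**Figure D3:**
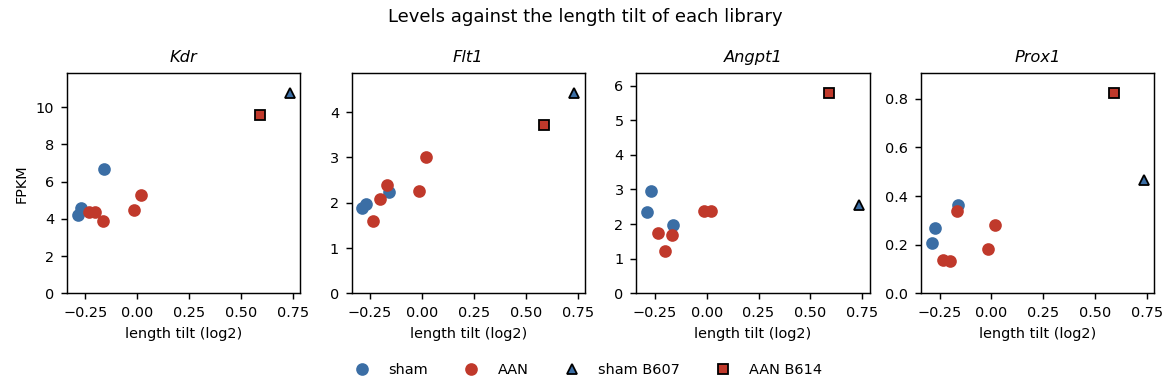
FPKM of *Kdr*, *Flt1*, *Angpt1* and *Prox1* (vertical axes) against the length tilt of each library on the log2 scale (horizontal axes), for 4 sham mice (blue) and 6 AAN mice (red). The tilt of each library is relative to the other mice of its own group. Sham B607 (triangle) and AAN B614 (square) lie at tilts of 0.73 and 0.59, and hold the 2 highest levels of *Kdr*, *Flt1* and *Prox1*, while for *Angpt1* only AAN B614 stands apart.

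The 250 bases before the start of *Kdr* are shown because ERG and FLI1 belong to the family that binds the ETS core GGAAGT, with the 1 match in capitals (reverse strand). The sequence is from RefSeq on GRCm38.p6, chr5:75978456-75978705, read 5′ to 3′ on the minus strand.
Kdr: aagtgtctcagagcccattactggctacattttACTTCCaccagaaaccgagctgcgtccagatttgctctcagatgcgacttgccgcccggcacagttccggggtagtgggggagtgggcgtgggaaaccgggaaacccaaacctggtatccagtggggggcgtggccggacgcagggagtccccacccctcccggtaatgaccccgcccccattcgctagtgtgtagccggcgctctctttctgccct
On either strand, this core stood in the 250 bases before 19.7% of 32851 starts in RefSeq and before 6 of the 36 starts of the 29 genes that matched the table (5 genes). The hypoxia response core ACGTG stood before 16.6% of all starts and before 2 of the 36, in *Pdpn* and at the inner start of *Vegfa*. A match of so short a motif is a description of the letters and not a binding site.

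The neuropilins are co-receptors for VEGF and semaphorins, NRP1 mainly in arterial endothelium and many stromal cells and NRP2 mainly in venous and lymphatic endothelium. *Nrp1* read 12.3, 14.0, 11.1 and 11.2 FPKM in sham against 21.7 to 33.3 FPKM (median 28.0) in AAN, a change of 1.17 (SE 0.16, limma, adjusted p = 5.71e-05). *Nrp2* read 0.892, 0.645, 0.525 and 0.589 FPKM in sham against 2.36 to 3.94 FPKM (median 3.38) in AAN, a change of 2.14 (SE 0.21, limma, adjusted p = 4.05e-06). Neither gene overlapped between the groups. On the median of ratios scale *Nrp2* stayed called (1.44, SE 0.18) and *Nrp1* did not (0.41, SE 0.18, limma, adjusted p = 0.0787). *Nrp2* minus *Nrp1* within each mouse rose by 0.97 (SE 0.22, exact permutation test, two-sided, p = 0.00952, adjusted p = 0.0156). That difference was 0.24 and did not pass with a pseudocount of 1, above the sham level of *Nrp2*.

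Of the 5 ligands, *Vegfd* and *Pgf* were called higher as deposited, and *Vegfa* and *Vegfb* did not pass. *Vegfa* (chr17:46016993-46032369, GRCm38, minus strand) read 12.3, 14.6, 19.2 and 16.1 FPKM in sham against 9.0 to 14.9 FPKM (median 12.4) in AAN. The groups overlapped, and the change was -0.34 (SE 0.18, limma, adjusted p = 0.122). It was -1.10 (SE 0.21, limma, adjusted p = 0.00126) by the median of ratios, and with the FPKM totals made equal it was 0.02. *Vegfb*, a ligand of VEGFR1, lay at 23.3 ± 3.62 FPKM in sham against 23.3 ± 1.84 FPKM in AAN, a change of 0.01 (SE 0.14) and of -0.75 (SE 0.15, limma, adjusted p = 0.00175) on the median of ratios scale. In the healthy kidney podocytes and tubules are main sources of *Vegfa*. Of 6 podocyte genes 2 were called higher and 0 lower as deposited, where 35.8% and 3.43% of all genes tested were. After either rescaling, the median of ratios or quantile normalization, 0 were called in either direction. Of all genes, 14.8% to 19% were called higher and 10.5% to 11.8% lower after these rescalings. The summed levels of the podocyte genes were 44.3 to 86.0 FPKM in sham against 50.4 to 131.1 FPKM in AAN. Beside them stand the 6 of 8 proximal tubule genes called lower. The part of podocytes and tubules in the level of *Vegfa* was not tested.

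VEGF-C and VEGF-D are the ligands of VEGFR3, and placental growth factor is a further ligand of VEGFR1. *Vegfc* read 2.06, 1.88, 1.71 and 2.32 FPKM in sham against 3.12 to 4.07 FPKM (median 3.49) in AAN, without overlap, and its change of 0.79 (SE 0.15, limma, adjusted p = 0.000818) stayed under 2-fold and was 0.06 on the median of ratios scale and -0.14 after quantile normalization. *Vegfd* read 2.29, 0.859, 1.34 and 1.72 FPKM in sham against 2.97 to 5.08 FPKM (median 3.81) in AAN, a change of 1.34 (SE 0.25, limma, adjusted p = 0.000632) that was 0.61 (SE 0.20) on the median of ratios scale. *Pgf*, the gene of placental growth factor, read 0.144, 0.439, 0.346 and 0.307 FPKM in sham against 0.519 to 1.11 FPKM (median 0.683) in AAN. Its change of 1.11 (SE 0.29, limma, adjusted p = 0.0053) was under 2-fold without sham B607 (0.88), 0.48 on the median of ratios scale and -0.15 after quantile normalization. It rests on at most 7.34 to 20.2 fragments per library in sham and 20.2 to 53.2 in AAN. Set against *Vegfa* within each mouse, all 3 ligands rose without overlap between the groups. *Vegfc* minus *Vegfa* rose by 1.13 (SE 0.22), *Vegfd* minus *Vegfa* by 1.68 (SE 0.39) and *Pgf* minus *Vegfa* by 1.45 (SE 0.25), each with an exact permutation p of 0.00476 (two-sided, adjusted p = 0.00857). *Vegfb* minus *Vegfa* rose by 0.36 (SE 0.14, exact permutation test, two-sided, p = 0.0381, adjusted p = 0.049), and this pair lost its pass when any 1 of 8 of the 10 mice was left out.

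**Figure D4:**
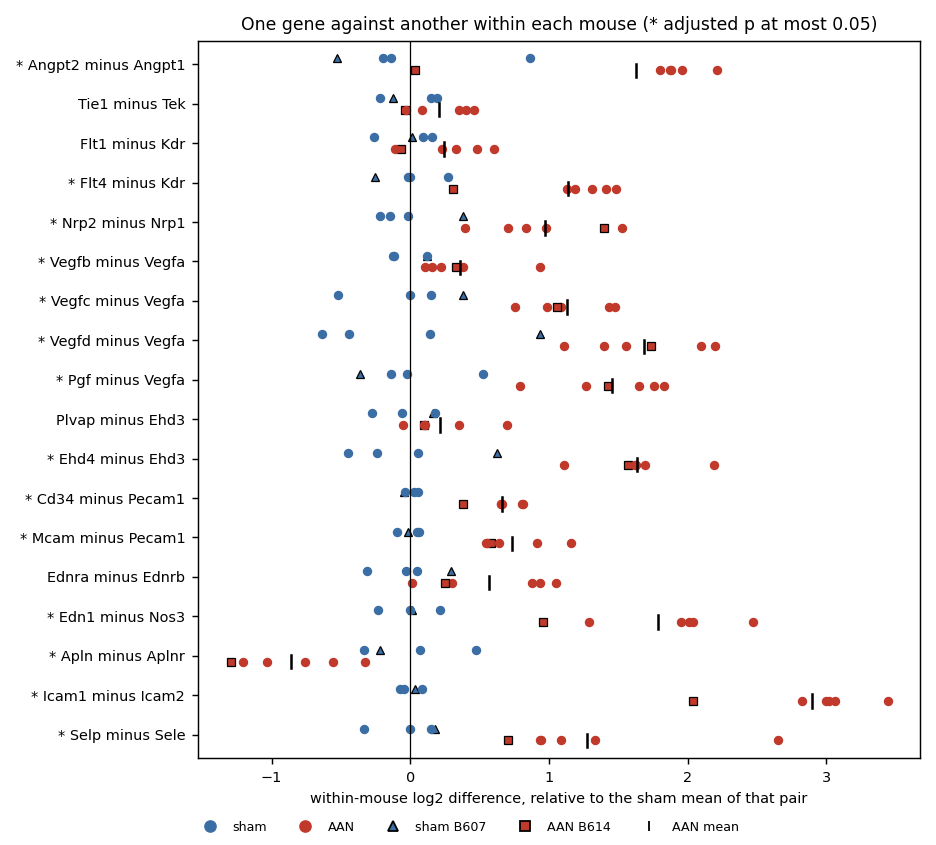
Within-mouse log2 difference of 18 pairs of genes (first minus second, on FPKM + 0.1), drawn relative to the mean of the 4 sham mice of that pair. Blue points are sham and red points AAN mice, triangles sham B607, squares AAN B614, bars the AAN mean, and an asterisk marks an adjusted p of at most 0.05 (14 pairs). Of these, *Selp* minus *Sele* rests on too few fragments to be read and is set by the pseudocount. Of the other 13, 12 rose and 1, *Apln* minus *Aplnr*, fell. *Icam1* minus *Icam2* moved farthest (2.9), and *Tie1* minus *Tek*, *Flt1* minus *Kdr*, *Plvap* minus *Ehd3* and *Ednra* minus *Ednrb* did not pass.

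Of the angiopoietins, *Angpt2* was called higher as deposited and *Angpt1* was not called. *Angpt2* encodes the ligand that endothelial cells release when vessels are remodelled. It read 0.345, 0.414, 0.574 and 0.811 FPKM in sham against 1.08 to 2.11 FPKM (median 1.78) in AAN, and every AAN mouse lay above every sham mouse. Its change was 1.51 (SE 0.25, limma, adjusted p = 0.000342), and 0.83 (SE 0.25, limma, adjusted p = 0.0181) on the median of ratios scale. After quantile normalization it was 0.31 (SE 0.24, limma, adjusted p = 0.311). *Angpt1*, whose product comes mainly from pericytes and other stromal cells, read 2.55, 2.34, 2.97 and 1.98 FPKM in sham. In AAN 5 mice read 1.23 to 2.39 FPKM and B614 read 5.78 FPKM. The change of *Angpt1* was -0.12 (SE 0.34, limma, adjusted p = 0.77), and -0.39 (SE 0.22) without AAN B614. With all mice it was -0.86 (SE 0.34, limma, adjusted p = 0.0592) by the median of ratios and did not pass. After quantile normalization it was -1.09 (SE 0.37, limma, adjusted p = 0.0324), called lower. Without both tilted mice it was -0.37 (SE 0.24) as deposited and -1.17 (SE 0.23, limma, adjusted p = 0.00206) on the median of ratios scale. *Angpt2* minus *Angpt1* was -2.58 to -1.19 in sham, -0.25 to 0.16 in 5 AAN mice and -2.02 in AAN B614. The difference was 1.63 (SE 0.44, exact permutation test, two-sided, p = 0.0238, adjusted p = 0.033), and 1.77 without the 2 tilted mice.

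Neither receptor gene of the angiopoietin pathway passed the adjusted p as deposited. *Tek*, the gene of Tie2, was at 3.85 ± 1.12 FPKM in sham against 4.47 ± 1.04 FPKM in AAN, a change of 0.22 (SE 0.22, limma, adjusted p = 0.378), and -0.52 (SE 0.18, limma, adjusted p = 0.0351) on the median of ratios scale. *Tie1*, which encodes an orphan receptor that modulates Tie2, was at 6.53 ± 1.74 FPKM in sham against 8.65 ± 1.21 FPKM in AAN, a change of 0.43 (SE 0.19, limma, adjusted p = 0.072). *Tie1* minus *Tek* differed by 0.21 (SE 0.14, exact permutation test, two-sided, p = 0.181). *Angptl4*, an angiopoietin-like inhibitor of lipoprotein lipase, ranged widely among the AAN mice, from 4.36 to 29.2 FPKM against 2.85 to 6.82 FPKM in sham. Its change of 1.13 (SE 0.51, limma, adjusted p = 0.0745) did not pass with all mice, and was called without AAN B630 (1.34) and without AAN B666 (1.35).

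All 6 genes of vasoactive signals and receptors were called higher as deposited, where 35.8% of all genes tested were. For each of them every AAN mouse lay above every sham mouse, which held for 40.3% of all genes tested. By the median of ratios 3 of the 6 were called higher (19% of all genes), and after quantile normalization 2 (14.8% of all genes). *Nos3*, *Ednrb* and *Apln* were at 0.19, 0.22 and 0.24 after quantile normalization. *Edn1* (chr13:42301476-42307990, GRCm38, plus strand) encodes endothelin 1, a vasoconstrictor made by endothelium and tubules. It read 0.975, 0.673, 0.933 and 0.983 FPKM in sham against 3.4 to 14.1 FPKM (median 7.45) in AAN. The lowest AAN mouse, B614, was over 3 times the highest sham mouse. The change was 2.94 (SE 0.31, limma, adjusted p = 8.77e-06), and 2.22 (SE 0.29) on the median of ratios scale. *Ednra*, the gene of the endothelin receptor of smooth muscle and mesangium, read 0.364, 0.180, 0.234 and 0.183 FPKM in sham against 0.763 to 1.39 FPKM (median 1.13) in AAN, a change of 1.88 (SE 0.23, limma, adjusted p = 2.52e-05). *Ednrb*, whose product on endothelium and collecting duct mediates dilation and clearance of the peptide, read 1.13, 0.829, 0.951 and 1.04 FPKM in sham against 1.74 to 3.88 FPKM (median 2.56) in AAN, a change of 1.3 (SE 0.22, limma, adjusted p = 0.000362). By the median of ratios *Ednra* stayed called (1.27, SE 0.20), though not after quantile normalization (0.62) or with a pseudocount of 1 (0.78), and *Ednrb* did not reach 2-fold (0.59, SE 0.19). *Ednra* minus *Ednrb* differed by 0.57 (SE 0.22, exact permutation test, two-sided, p = 0.0571, adjusted p = 0.0686).

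*Nos3* encodes the endothelial nitric oxide synthase, the source of a vasodilator. It read 1.72, 1.22, 1.98 and 1.49 FPKM in sham against 2.98 to 4.96 FPKM (median 3.47) in AAN, a change of 1.15 (SE 0.20, limma, adjusted p = 0.0004) that was 0.42 (SE 0.20, limma, adjusted p = 0.109) on the median of ratios scale. On the other strand, *Nos3* overlaps *Gm15587* and *Atg9b*. *Edn1* minus *Nos3* was -1.01 to -0.56 in sham and 0.18 to 1.70 in AAN, so that *Edn1* lay below *Nos3* in all 4 sham mice and above it in all 6 AAN mice. The difference was 1.79 (SE 0.25, exact permutation test, two-sided, p = 0.00476, adjusted p = 0.00857).

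*Apln* encodes apelin, a peptide of sprouting tip cells, and *Aplnr* its receptor on venous and capillary endothelium. *Apln* read 2.59, 1.06, 1.35 and 1.75 FPKM in sham against 2.89 to 4.51 FPKM (median 4.02) in AAN, a change of 1.18 (SE 0.24, limma, adjusted p = 0.00124) that was at the 2-fold limit without sham B634 (1.0, not called). *Aplnr* read 2.98, 0.723, 1.26 and 2.19 FPKM in sham against 4.87 to 10.9 FPKM (median 6.80) in AAN, a change of 2.05 (SE 0.35, limma, adjusted p = 0.000357). The highest value of each group again came from B607 and B614, and without these 2 mice the change was 2.20 (SE 0.31). After that rescaling *Aplnr* stayed called (1.32, SE 0.30) and *Apln* did not (0.45, SE 0.18). *Apln* minus *Aplnr* fell by 0.86 (SE 0.24, exact permutation test, two-sided, p = 0.0143, adjusted p = 0.0214), and this pair did not pass without the 2 tilted mice (-0.85).

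Of the 3 adhesion receptor genes of activated endothelium, *Icam1* was detected well in every mouse, and *Selp* and *Sele* were near the limit of detection. The estimate of *Icam1* was the largest of the 41 as deposited, within 1 SE of that of *Pdpn*. *Icam1* (chr9:21015985-21028817, GRCm38, plus strand) encodes ICAM-1, which binds leukocyte integrins and is induced by inflammatory cytokines on endothelium, tubules and leukocytes. It read 7.71, 6.61, 8.08 and 9.29 FPKM in sham against 44.9 to 109.7 FPKM (median 78.6) in AAN. With means of 7.92 ± 1.11 FPKM (SD, n = 4) and 81.9 ± 24.8 FPKM (SD, n = 6), it went from 9th of the 42 genes by mean level in sham to 1st in AAN. The change was 3.30 (SE 0.24, limma, adjusted p = 5.66e-07), and 2.54 (SE 0.24) on the median of ratios scale. *Icam1* minus *Icam2*, the inducible against the constitutive ligand of the same integrins, was 1.63 to 1.79 in sham and 3.74 to 5.14 in AAN, a difference of 2.9 (SE 0.19, exact permutation test, two-sided, p = 0.00476, adjusted p = 0.00857). The rise of the 8 leukocyte genes given above stands beside that of *Icam1*, and its part was not tested.

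*Selp* and *Sele* encode P-selectin and E-selectin, on which leukocytes roll. *Selp* read 0.0373, 0, 0.0199 and 0.0397 FPKM in sham, at most 2.88 fragments in any library, and 0.159 to 0.485 FPKM (median 0.223) in AAN, at most 9.37 to 33.2 fragments. Since it passed the limit on low values only through AAN, its change is given as a description. That change was set by the pseudocount, with 1.49 at 0.1, 0.29 at 1 and 3.12 at 0.01, and it was 0.66 after quantile normalization. *Sele* read 0.0417 to 0.0833 FPKM in sham against 0.0221 to 0.147 FPKM in AAN, that is 2 to 4 and 1 to 7 fragments, and no change was detectable at this depth. *Selp* is also a gene of platelets. Of the 5 platelet genes 4 were tested and 1, *Pf4*, was called higher, where 35.8% of all genes tested were. *Itga2b* lay at 0.482 to 0.756 FPKM in sham against 0.332 to 0.708 FPKM in AAN, and *Gp9* lay at 0 to 0.826 and 0 to 0.276 FPKM. *Ppbp* lay at 0 to 1.51 FPKM in sham against 0.0588 to 2.09 FPKM in AAN, and *Gp1ba* did not exceed 0.0248 FPKM.

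The 250 bases before the starts of *Icam1* and *Selp* are shown for the motif GGNNNTNCC, a loose form of the kappa B site bound by NF-kappa B, whose matches on either strand are in capitals. They are from RefSeq on GRCm38.p6, both on the plus strand, chr9:21015690-21015939 for *Icam1* and chr1:164115014-164115263 for *Selp*.
Icam1: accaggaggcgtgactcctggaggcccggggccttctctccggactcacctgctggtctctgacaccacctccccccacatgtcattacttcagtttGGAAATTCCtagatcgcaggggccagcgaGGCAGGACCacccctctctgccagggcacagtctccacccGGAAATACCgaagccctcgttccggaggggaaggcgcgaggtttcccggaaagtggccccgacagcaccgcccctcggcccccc
Selp: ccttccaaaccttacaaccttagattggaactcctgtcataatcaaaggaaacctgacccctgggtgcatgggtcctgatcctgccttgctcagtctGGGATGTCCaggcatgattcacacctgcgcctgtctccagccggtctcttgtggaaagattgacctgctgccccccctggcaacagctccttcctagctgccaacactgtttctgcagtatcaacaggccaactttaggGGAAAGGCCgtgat
*Icam1* held 3 matches and *Selp* 2. The same letters stood before 39.3% of all starts and before 17 of the 36 starts of the matched genes (15 genes), so a match sets no gene apart.

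Of the 2 lymphatic genes 1 was called higher. *Pdpn* (chr4:143267431-143299564, GRCm38, minus strand) encodes podoplanin, a sialomucin of lymphatic endothelium, podocytes and activated fibroblasts. It read 3.05, 1.51, 2.21 and 2.51 FPKM in sham against 12.6 to 34.4 FPKM (median 25.5) in AAN. The groups lay far apart, and the change was 3.26 (SE 0.29, limma, adjusted p = 2.55e-06), with 2.52 (SE 0.25) on the median of ratios scale. *Prox1*, the transcription factor that defines lymphatic endothelium and is also expressed in the ascending limb, read 0.467, 0.205, 0.269 and 0.364 FPKM in sham against 0.132 to 0.822 FPKM (median 0.231) in AAN. Its highest values were again those of B607 and B614, and its change was -0.18 (SE 0.38, limma, adjusted p = 0.689), or -0.30 (SE 0.30) without them. By the median of ratios *Prox1* was at -0.74 (SE 0.36, limma, adjusted p = 0.117). After quantile normalization it was called lower, at -1.38 (SE 0.37, limma, adjusted p = 0.0102). *Lyve1*, a further lymphatic marker, was listed at 0 in 3 sham mice and 1 AAN mouse and reached 0.210 FPKM at most, and *Mmrn1* did not exceed 0.0744 FPKM. *Reln* did not exceed 0.0616 FPKM. Of the 5 further lymphatic genes listed, 2 were tested, *Foxc2* and *Itga9*. Both were called higher as deposited (35.8% of all genes tested) and neither by the median of ratios (19% of all genes). *Foxc2* was at 1.65 ± 0.40 FPKM in sham against 4.13 ± 1.19 FPKM in AAN (a change of 1.24, SE 0.27). *Itga9* was at 1.01 ± 0.437 FPKM in sham against 3.43 ± 1.02 FPKM in AAN (a change of 1.69, SE 0.29). The fibroblast and podocyte genes are given above, and their part in the rise of *Pdpn* was not tested.

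A further 20 endothelial genes, which are not among the 42, were counted in the same way. Of these 7 were called higher and 0 lower as deposited, with a median change of 0.76, where 35.8% of all genes were called higher with a median of 0.75. On the median of ratios scale 1 was called higher, with a median of 0.04, where 19% of all genes were called higher with a median of 0.06. *Eng*, the gene of the TGF-beta co-receptor endoglin, was at 14.8 ± 1.5 FPKM in sham against 19.1 ± 3.21 FPKM in AAN, a change of 0.36 (SE 0.17). *Ecscr*, an endothelial surface protein gene named after its values were seen, was the 1 called on both scales (1.77 and 1.04). Of 16 tested ligands, receptors and processing enzymes of the same pathways, 8 were called higher and 0 lower as deposited, with a median of 0.96. The shares of all genes were 35.8% higher and 3.43% lower. On the median of ratios scale 6 of the 16 were called higher and 1 lower, where 19% and 10.5% of all genes were. *Vcam1*, a cytokine-induced adhesion receptor, read 0.828 to 1.18 FPKM in sham against 32.5 to 85.6 FPKM in AAN, a change of 5.49 (SE 0.25, limma, adjusted p = 8.29e-08). *Plxnd1*, the gene of a semaphorin receptor that pairs with neuropilins, changed by 1.97 (SE 0.18). *Ece1*, which encodes the enzyme that matures endothelin, changed by 0.07 (SE 0.26), beside the rise of *Edn1*. *Esm1*, an endothelial gene induced by VEGF, was the 1 called lower on the median of ratios scale (-1.03, SE 0.21, limma, adjusted p = 0.00162), and changed by -0.28 (SE 0.25) as deposited.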

How the data were processed

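RNA from the kidney cortex of 10 mice was sequenced, 1 library per mouse, and the authors deposited 1 table of FPKM values per mouse. According to the labels and the study's methods the reads were aligned to mm10 (GRCm38.p4) with HISAT2 and quantified with StringTie. The annotation release and the use of strand are not given in the sources used here. The FPKM were not rescaled between mice. Depth was estimated from the steps of low FPKM values, since the tables hold no counts, and no count test was run. Ensembl identifiers were matched to GENCODE M21 (21650 of 21792 genes). Groups follow the labels.

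Genes whose mean reached 0.1 FPKM were tested across the whole table on log2(FPKM + 0.1) with limma 3.58.1 (trend and robust, R 4.3.3) and Benjamini-Hochberg adjustment, with calls made at 0.05 and 2-fold. Fold changes on this scale understate those of low genes. Differences between 2 genes within a mouse were compared by an exact two-sided permutation test over all 210 splits, adjusted over 18 pairs (scipy 1.17.1 with numpy 2.4.6 under Python 3.11.15, tables by pandas 2.3.3 and plots by matplotlib 3.10.9). The p-values set the difference between the groups against the variation between these mice. Alternatives were other pseudocounts, filters, scalings and limma settings, no fold limit, each mouse left out, and mice with B tags only. Leaving out sham B607 and AAN B614, alone or with the median of ratios, was chosen after seeing the data. The 42 genes and the other lists were chosen with earlier results of these data known. Genes with a call, a mean of at least 5 FPKM in either group or a partner in a pair are given with values, and genes of other lists by their level or to show a range. Promoters were read from RefSeq (GRCm38.p6) and motifs searched on both strands. The scripts were tested on simulated data, which held neither a shift of most genes nor a length tilt.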

Additional observations from a re-analysis of the deposited data

Results flagged for a closer look

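In each group the highest or lowest mouse was compared with the rest by Dixon's test at 95%, over 120 groups of values of single genes and within-mouse differences. It set 1 mouse apart in 10 groups, where chance flags about 1 in 20 groups (6 here). AAN B614, which has a length tilt, was the mouse set apart in 6 of the 10.

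*Kdr* was 9.59 FPKM in AAN B614, against 3.89 to 5.31 FPKM elsewhere in AAN. *Angpt1* was 5.78 FPKM in AAN B614 and 1.23 to 2.39 FPKM in the others, and *Prox1* was 0.822 FPKM in that mouse and 0.132 to 0.337 FPKM in the others. On the log2 scale, *Angpt2* minus *Angpt1* was -2.02 in AAN B614, against -0.25 to 0.16 elsewhere in AAN. *Flt4* minus *Kdr* was -2.09 there and -1.27 to -0.91 in the others, and *Cd34* minus *Pecam1* was -0.81 there and -0.54 to -0.39 in the others. *Flt1* was 4.42 FPKM in sham B607, the other mouse with a length tilt, and 1.89 to 2.24 FPKM in the other sham mice. *Edn1* was 0.673 FPKM in sham B634 and 0.933 to 0.983 FPKM in the other sham mice. *Vegfb* minus *Vegfa* was 1.52 in AAN B642 and 0.69 to 0.96 in the other AAN mice. *Selp* minus *Sele* was 2.26 in AAN B630 and 0.31 to 0.94 in the others, on few fragments.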

How the results depend on the processing

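The scaling between mice changed the counts most. Of all genes, 6126 were called higher and 588 lower as deposited (91.2% of calls higher), 3261 and 1801 by the median of ratios (64.4%), and 2537 and 2025 after quantile normalization (55.6%). By the median of ratios without sham B607 and AAN B614, chosen after seeing the data, they were 3384 and 1969. With equal FPKM totals 8837 were called higher and 332 lower. A pseudocount of 1 left 2909 called higher and a minimum mean of 1 FPKM 4025, and with no fold limit 9482 were higher and 1027 lower. Of the endothelial genes, 19 were called higher as deposited, 9 by the median of ratios with all mice and without the 2, 7 after quantile normalization, 10 with a pseudocount of 1, 28 with equal FPKM totals and 29 with no fold limit. Called lower were 2, 2 and 3 under those rescalings. With 1 mouse left out, 17 to 21 were called higher, and of all genes 5488 to 6684 higher and 524 to 703 lower.

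Estimates changed sign as follows, and the cause was not tested beyond the rescaling itself. By the median of ratios *Icam2* was at -0.33, *Robo4* -0.11, *Sox18* -0.069, *Emcn* -0.57, *Plvap* -0.24, *Ehd3* -0.45, *Vegfb* -0.75, *Tek* -0.52 and *Tie1* -0.32. Without the 2 mice as well, these were -0.43, -0.14, -0.087, -0.66, -0.24, -0.53, -0.86, -0.52 and -0.31. After quantile normalization *Icam2* was at -0.52, *Robo4* -0.29, *Erg* -0.20, *Sox17* -0.29, *Emcn* -0.40, *Ehd3* -0.25, *Flt4* -0.21, *Vegfb* -0.37, *Vegfc* -0.14, *Pgf* -0.15, *Tek* -0.60 and *Tie1* -0.24. With equal FPKM totals *Kdr* was at 0.089, *Flt1* 0.32, *Vegfa* 0.020, *Angpt1* 0.23 and *Prox1* 0.064. With 1 mouse left out, *Kdr* ranged from -0.45 to 0.00072 (without sham B607), *Flt1* from -0.14 to 0.25 (without sham B607, and also above 0 without AAN B639 at 0.020 and AAN B642 at 0.090), *Vegfb* from -0.053 (without sham B607) to 0.080 (also below 0 without sham B634 at -0.049, AAN B630 at -0.0065 and AAN B642 at -0.018), and *Angpt1* from -0.39 (without AAN B614) to 0.040 (without AAN B639). Without both tilted mice *Flt1* was at 0.13 and *Vegfb* at -0.031. *Ednra* minus *Ednrb* was -0.075 with a pseudocount of 1. Of the 18 pairs, 11 to 15 passed under the alternatives run, *Selp* minus *Sele* counted among the 18. *Egfl7* was called without sham H249 (1.04). No paired analysis was possible because replicate numbers are not shared between sham and AAN.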
